A study of Drosophila melanogaster with 24 samples.

Results

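A set of 3 chromatin transcripts of Drosophila melanogaster was followed through the start of metamorphosis: His4r (FBtr0082962), which encodes a replacement histone H4, kis (FBtr0078144), which encodes the chromatin remodeller Kismet, and HDAC3 (FBtr0078767), which encodes a histone deacetylase. They were chosen by name and identifier, and are 3 of the 16637 FlyBase transcripts on the arrays. Whole animals of 4 strains (genotypes Oregon-R, Canton-S, Samarkand and Zimbabwe-109) were measured as late larvae, in the last instar before the puparium forms, and as white prepupae, which have just formed it. With 3 biological replicates of pooled animals in each of the 8 combinations of strain and stage, 24 single-colour arrays were read. Animals of all groups grew at 25 °C on medium with 0.05% bromophenol blue, and about 120 mg of animals, 60 to 80 individuals, went into each replicate. Source labels read 18BPF for all larvae and PF for all prepupae, and the unit of the number 18 was not given. Sex was not given in the labels.

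Histone H4 is part of the core around which DNA is wrapped. The main H4 genes are expressed with DNA replication, whereas His4r encodes the same protein outside the histone cluster, from a transcript that is polyadenylated and made throughout the cell cycle. Kismet belongs to the CHD family of ATP-driven remodellers and to the trithorax group, which keeps genes active. HDAC3 removes acetyl groups from histones and is the catalytic subunit of a co-repressor complex that contains Smrter, a partner of the ecdysone receptor. Ecdysone is the steroid whose pulse at the end of larval life starts puparium formation, after which larval tissues are broken down and imaginal tissues take their place.

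Each transcript is 1 row of the array table. The reference gene table lists 4 RefSeq transcripts for His4r, 6 for kis and 1 for HDAC3, so the His4r and kis rows are each named after 1 transcript of several. Whether the probes of these rows read that transcript alone or others of the gene too was not tested. The span of kis overlaps 7 other annotated genes, among them the microRNA gene mir-965, and that of HDAC3 overlaps CG45100. Probe sequences were not used here, so cross-hybridisation with these genes, or of His4r with other H4 genes, was not tested. The HDAC3 identifier was found within a longer name in the gene table, and the other 2 as they stand. Levels are log2 intensities after quantile normalization, which gives all arrays 1 distribution, and the level of 1 transcript cannot be set against that of another. In whole animals, fewer cells of a type and less RNA per cell cannot be told apart.

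The arrays themselves differed in ways that bear on these transcripts. As deposited, arrays had median intensities between 1936 and 3289. Within groups, deposited values of each of the 3 transcripts followed that median, with r between 0.84 and 0.88 over 24 arrays. Each array was also placed between the stages along the mean stage difference of the other 3 strains, on a scale where their larvae average 0 and their prepupae 1. Larvae stood at 0.40 ± 0.03 in Oregon-R, 0.22 ± 0.15 in Zimbabwe-109, -0.13 ± 0.08 in Samarkand and -0.43 ± 0.03 in Canton-S (SD, n = 3), and prepupae averaged 0.89 to 1.05. Over the 50 transcripts with the strongest stage difference, prepupal replicate 2 of Zimbabwe-109 stood at 0.62 against 0.96 to 1.08 for the other 11 prepupal arrays. Larval replicate 4 of that strain stood at 0.25, which lay within the -0.09 to 0.27 of the other larval arrays but apart from the larval replicates 1 and 3 of its strain, at 0.02 and 0.03. Over all transcripts the picture differed. Larval replicates 1, 3 and 4 of Zimbabwe-109 stood at 0.05, 0.30 and 0.30, so replicate 4 was close to replicate 3. Its prepupal replicate 2 stood at 0.86, above Canton-S prepupal replicate 1 at 0.76. Main results that rest on larval replicate 4 and prepupal replicate 2 of Zimbabwe-109 are given with and without these 2 arrays.

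The replacement histone transcript rose at the transition. Averaged over strains, His4r had a log2 level of 12.67 in larvae and 12.97 in prepupae, a rise of 0.30 ± 0.04 (SE, 12 arrays per stage) or 1.23-fold, with an adjusted p of 7.34e-07 in the limma fit across all transcripts. The rise had the same sign in 4 of 4 strains, as did the stage changes of 63.9% of all transcripts. An exact two-sided permutation of stage labels within strains gave p = 0.000112 for this single value, and 0.000338 adjusted over the 3 transcripts. On values as deposited the rise was 0.25, and the same permutation gave p = 0.008, or 0.024 adjusted. In the limma comparison of the stages 71.4% of all transcripts were called, 45.0% as higher in prepupae, so a called rise was common on these arrays. Without the 2 Zimbabwe-109 arrays the rise was again 0.30, and without Canton-S it was 0.21.

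The single arrays separated the stages in 3 of 4 strains. In Canton-S, larvae read 12.35, 12.45 and 12.27 and prepupae 12.91, 12.90 and 12.85. In Samarkand, larvae read 12.51, 12.68 and 12.56 and prepupae 13.02, 12.87 and 12.86. The stages did not overlap in either strain. In Zimbabwe-109, larvae read 12.74, 12.93 and 12.83 and prepupae 13.12, 13.01 and 13.19, again without overlap. In Oregon-R, larvae read 12.80, 12.97 and 12.94 and prepupae 13.12, 12.87 and 12.94, and the stages overlapped. Complete separation of the stages was also common among all transcripts, found for 57.6% in Canton-S, 70.0% in Samarkand, 39.9% in Zimbabwe-109 and 36.8% in Oregon-R.

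**Figure D1:**
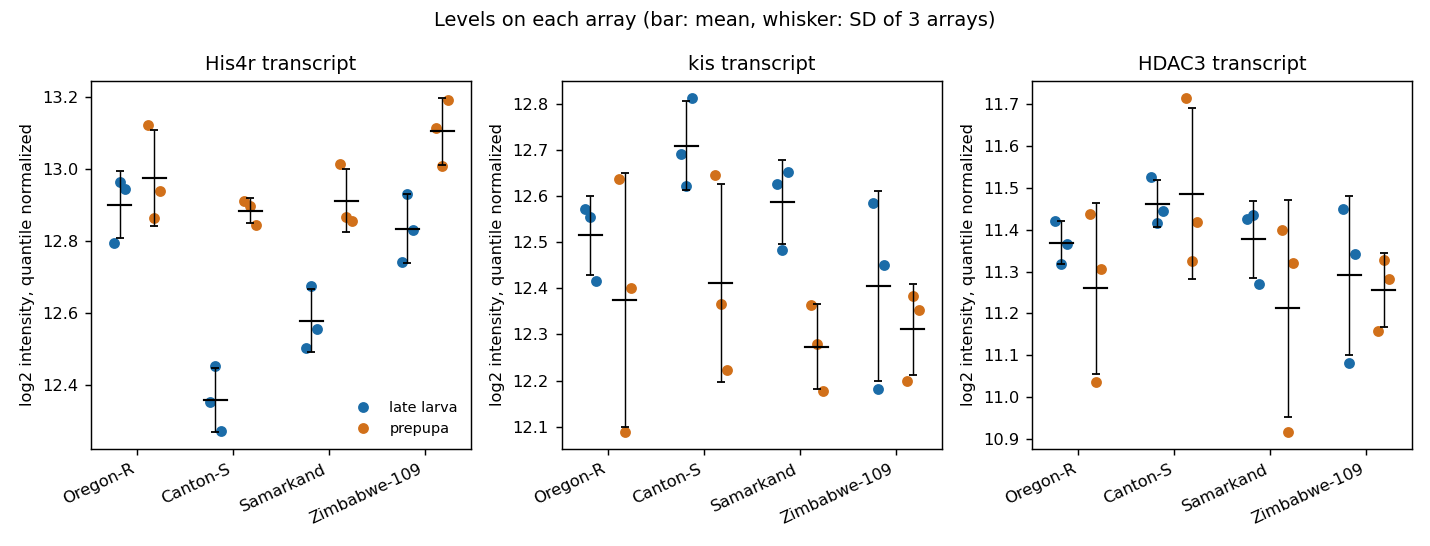
Quantile-normalized log2 intensity (vertical axes, which differ between panels and do not start at 0) of His4r, kis and HDAC3 on each of the 24 arrays, by strain and stage; points are arrays, bars are means and whiskers are SDs of 3 arrays. His4r larvae spread from 12.36 in Canton-S to 12.90 in Oregon-R, while its prepupae lie between 12.89 and 13.11.

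Tested strain by strain, His4r rose by 0.53 ± 0.08 in Canton-S (adjusted p = 6.33e-06), by 0.33 ± 0.08 in Samarkand (adjusted p = 0.00129) and by 0.27 ± 0.08 in Zimbabwe-109 (adjusted p = 0.0101; limma, SE). Of all transcripts, 33.6% were called higher in Canton-S prepupae, 31.0% in Samarkand and 16.3% in Zimbabwe-109, and 56.7%, 50.8% and 29.6% in either direction. The Zimbabwe-109 rise was 0.27 without its 2 arrays and then just missed the threshold (adjusted p = 0.0504). It also missed it without larval replicate 1 or prepupal replicate 4 of that strain (0.22 and 0.23). In Oregon-R the change was 0.07 ± 0.08, with an interval of -0.08 to 0.23 (95%), and did not pass (adjusted p = 0.53, with 16.7% of all transcripts called and 7.72% called higher). Without scaling of the arrays, the changes in Samarkand and Zimbabwe-109 did not pass at 0.17 and 0.09.

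The size of the His4r rise differed among strains. The interaction test gave an adjusted p of 0.0229 (limma), with stage changes that spanned 0.45 on the log2 scale, and 23.6% of all transcripts passed it. Of the 6 pairs of strains, only Canton-S and Oregon-R differed in their stage change, by 0.45 ± 0.11 (adjusted p = 0.00356, where 25.8% of transcripts were called). The other 5 pairs had adjusted p-values from 0.127 to 0.836. In these, the percentages of transcripts called were 8.99% for Samarkand and 4.22% for Zimbabwe-109 against Oregon-R, 6.64% for Samarkand and 14.3% for Zimbabwe-109 against Canton-S, and 2.90% for Zimbabwe-109 against Samarkand. The interaction did not pass without Canton-S (span 0.24, adjusted p = 0.302), without scaling (span 0.60, adjusted p = 0.272), or with a fixed replicate block (adjusted p = 0.0569). Without scaling the Canton-S and Oregon-R pair was lost too (0.60, adjusted p = 0.117). Without the 2 Zimbabwe-109 arrays the interaction passed (span 0.46, adjusted p = 0.0343). It also missed the threshold when 1 of 5 arrays was left out, namely larval replicate 3 or 5 or prepupal replicate 3 or 5 of Oregon-R, or larval replicate 4 of Canton-S, with adjusted p-values of 0.0534 to 0.0679.

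**Figure D2:**
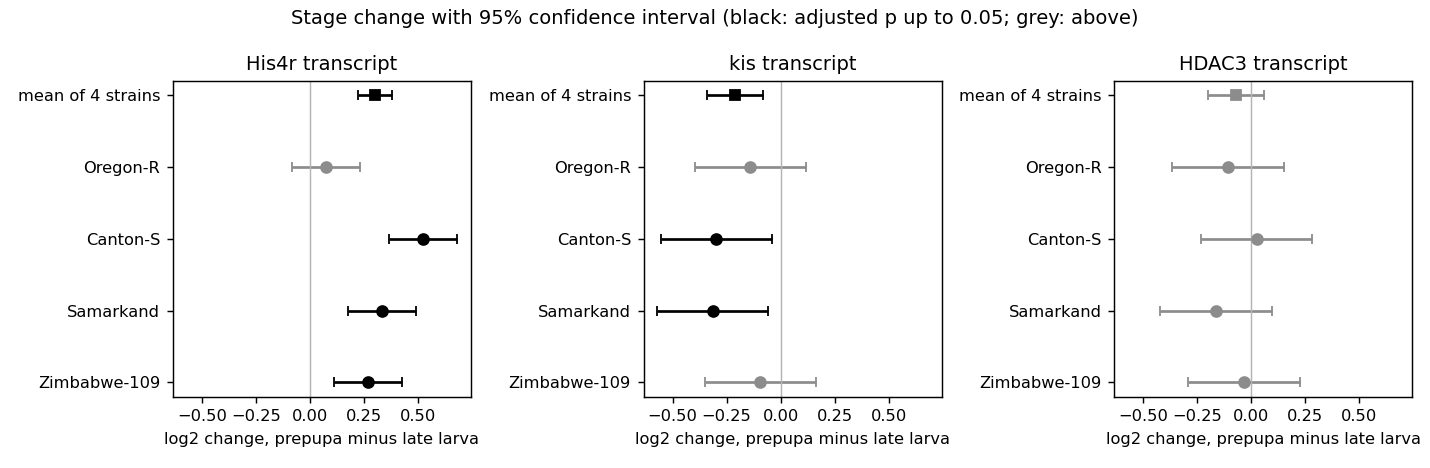
Stage change (prepupa minus late larva, log2, horizontal axis) of each transcript as the mean of 4 strains (squares) and in each strain (circles); lines are 95% confidence intervals of the limma fit, and black marks an adjusted p up to 0.05. The 4 His4r changes run from 0.07 in Oregon-R to 0.53 in Canton-S, and all HDAC3 intervals include 0.

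Strains were then compared within each stage. In larvae, His4r stood at 12.90 ± 0.09 in Oregon-R, 12.84 ± 0.10 in Zimbabwe-109, 12.58 ± 0.09 in Samarkand and 12.36 ± 0.09 in Canton-S (SD, n = 3). The strains differed at that stage (range 0.54 or 1.46-fold, adjusted p = 8.07e-06, limma F test), as did 77.1% of all transcripts. All 5 pairs of larvae other than Zimbabwe-109 and Oregon-R passed, where 64.9% (Canton-S and Oregon-R), 35.1% (Samarkand and Oregon-R), 48.1% (Samarkand and Canton-S), 62.9% (Zimbabwe-109 and Canton-S) and 35.3% (Zimbabwe-109 and Samarkand) of all transcripts were called. In the order of the levels, neighbours Oregon-R and Zimbabwe-109 did not differ beyond their spread (adjusted p = 0.545, with 32.0% called), while Zimbabwe-109 and Samarkand (0.26 ± 0.08, adjusted p = 0.0122) and Samarkand and Canton-S (0.22 ± 0.08, adjusted p = 0.0218) did. The call for Zimbabwe-109 over Samarkand was lost without larval replicate 2 of Samarkand or 3 of Zimbabwe-109, and that for Samarkand over Canton-S without larval replicate 1 or 4 of Canton-S or 3 of Samarkand. Median centring turned the sign of the latter difference, to -0.14, and under it Canton-S differed neither from Oregon-R (-0.12, adjusted p = 0.196) nor from Zimbabwe-109 (0.09, adjusted p = 0.359) past the threshold, and Zimbabwe-109 and Samarkand just missed it (0.22, adjusted p = 0.0516). Without scaling the strain F test was lost (range 0.40, adjusted p = 0.111), and of the 5 pairs Zimbabwe-109 and Canton-S alone passed (0.40, adjusted p = 0.038). The other 4 then stood at -0.37 for Canton-S minus Oregon-R (adjusted p = 0.0558), -0.10 for Samarkand minus Oregon-R (0.796), 0.27 for Samarkand minus Canton-S (0.176) and 0.13 for Zimbabwe-109 minus Samarkand (0.76). Without the 2 Zimbabwe-109 arrays, the F test (range 0.55, adjusted p = 3.88e-05) and all 5 pairs passed. RNA of each strain was extracted separately, so strain and extraction cannot be told apart here. The order is also that of the larval positions between the stages over all transcripts, given above. Over the 50 transcripts with the strongest stage difference, larvae averaged 0.24 in Oregon-R, 0.10 in Zimbabwe-109, -0.0695 in Canton-S and -0.0748 in Samarkand. By that measure Canton-S larvae did not stand below those of Samarkand. The part of these positions in the His4r result was not tested.

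In prepupae the 4 strain means were closer, at 13.11 ± 0.09 in Zimbabwe-109, 12.98 ± 0.13 in Oregon-R, 12.91 ± 0.09 in Samarkand and 12.89 ± 0.04 in Canton-S. Their range of 0.22 did not pass (adjusted p = 0.0562, with 67.9% of all transcripts called). Of the 6 pairs, Zimbabwe-109 and Canton-S alone passed (0.22 ± 0.08, adjusted p = 0.0181), and did not without prepupal replicate 3 of Canton-S or 4 of Zimbabwe-109, or without the 2 Zimbabwe-109 arrays (adjusted p = 0.0505). Of all transcripts, 55.7% were called for that pair, 51.7% for Samarkand and Canton-S, 46.6% for Canton-S and Oregon-R, 26.8% for Zimbabwe-109 and Oregon-R, 25.4% for Zimbabwe-109 and Samarkand and 17.7% for Samarkand and Oregon-R. The place of Canton-S depended on the scaling. When the arrays were centred on their medians in place of quantile normalization, Canton-S was the highest of the 4 strains in prepupae, at 13.18 against 12.75 to 12.93, and the range of 0.43 passed (adjusted p = 0.000954). The difference of Zimbabwe-109 minus Canton-S prepupae then turned sign and passed in the opposite direction (-0.25, adjusted p = 0.0164, limma). Without scaling it also turned sign but did not pass (-0.19, adjusted p = 0.407). Under median centring, Canton-S larvae stood at 12.64, above Samarkand at 12.51 and below Oregon-R at 12.77. Canton-S arrays had the widest distributions as deposited, with interquartile ranges of 1.48 to 1.72 on the log2 scale against 1.14 to 1.29 in the other strains.

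The remodeller transcript went the other way. Averaged over strains, kis had a log2 level of 12.55 in larvae and 12.34 in prepupae, a fall to 0.864 of the larval level (-0.21 ± 0.06, SE, adjusted p = 0.005, limma). The sign was the same in 4 of 4 strains, as for 63.9% of all transcripts, and 26.4% were called as lower in prepupae. The exact two-sided permutation within strains gave p = 0.00454, or 0.00681 adjusted over the 3 transcripts. On values as deposited the change was -0.27, and the permutation gave p = 0.029, or 0.044 adjusted. The fall was -0.19 without the 2 Zimbabwe-109 arrays and -0.17 without Canton-S, and passed in both fits.

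The kis arrays overlapped more than those of His4r. In Samarkand, larvae read 12.63, 12.48 and 12.65 and prepupae 12.36, 12.28 and 12.18, all below the larvae. The stages were separate for 70.0% of all transcripts in that strain, 57.6% in Canton-S, 39.9% in Zimbabwe-109 and 36.8% in Oregon-R. In Canton-S, larvae read 12.69, 12.62 and 12.81 and prepupae 12.64, 12.37 and 12.22. Here 1 prepupal array exceeded the lowest larval one. In Oregon-R, larvae read 12.57, 12.55 and 12.42 and prepupae 12.64, 12.09 and 12.40. In Zimbabwe-109, larvae read 12.58, 12.18 and 12.45 and prepupae 12.20, 12.38 and 12.35. Both of these strains had overlapping stages, and the prepupae of Oregon-R held both the lowest kis array of all and one above every larva of that strain.

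Within strains, kis fell in Samarkand (-0.31 ± 0.12, adjusted p = 0.0407) and in Canton-S (-0.30 ± 0.12, adjusted p = 0.0459, limma), where 19.8% and 23.2% of all transcripts were called lower. The Samarkand call was lost without larval replicate 2 or 4 or prepupal replicate 2 or 3 of that strain, with adjusted p-values of up to 0.133. The Canton-S call was lost when 1 of 15 arrays of the 24 was left out. Of its own arrays these were larval replicates 1 and 4 and prepupal replicates 2 and 3, with changes of -0.30, -0.24, -0.27 and -0.20, and for the other 11 arrays the change stayed at -0.30 with adjusted p-values of 0.05 to 0.0533. The changes of -0.14 ± 0.12 in Oregon-R and -0.09 ± 0.12 in Zimbabwe-109 did not pass, where 9.0% and 13.3% of all transcripts were called lower, and the latter was -0.02 without the 2 arrays. The 4 changes were not shown to differ from each other (span 0.22, adjusted p = 0.674 for the interaction, with 23.6% of all transcripts called). For Canton-S minus Oregon-R the difference in stage change was -0.16, with a wide 95% interval of -0.52 to 0.21.

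Strain levels of kis were close together at both stages. Larval means were 12.71 ± 0.10 in Canton-S, 12.59 ± 0.09 in Samarkand, 12.51 ± 0.09 in Oregon-R and 12.41 ± 0.21 in Zimbabwe-109 (SD, n = 3). Prepupal means were 12.41 ± 0.21 in Canton-S, 12.38 ± 0.27 in Oregon-R, 12.31 ± 0.10 in Zimbabwe-109 and 12.27 ± 0.09 in Samarkand. No neighbours in either order differed beyond their spread. Of the 12 pairs within a stage, Canton-S over Zimbabwe-109 in larvae alone passed, where Zimbabwe-109 was -0.30 ± 0.12 from Canton-S (adjusted p = 0.0383, with 62.9% of all transcripts called; adjusted p = 0.0572 without the 2 arrays). That call was lost when larval replicate 1 or 4 of Canton-S or 3 or 4 of Zimbabwe-109 was left out. Over the 12 pairs, 17.7% to 64.9% of all transcripts were called. The F tests over 4 strains did not pass in larvae (range 0.30, adjusted p = 0.15, with 77.1% of all transcripts called) or prepupae (range 0.14, adjusted p = 0.717, with 67.9% called). Under median centring they did, with ranges of 0.78 (adjusted p = 2.99e-05) and 0.43 (adjusted p = 0.0125), since Canton-S then stood at 13.10 in larvae against 12.32 to 12.52 in the other strains.

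The deacetylase transcript showed no change that passed a test between stages. HDAC3 averaged 11.37 in larvae and 11.30 in prepupae, a difference of -0.07 ± 0.06 (SE, adjusted p = 0.308, limma) with a 95% interval of -0.20 to 0.06. The interval excludes a mean rise of the size seen in His4r and leaves room for a fall close to that of kis. An exact permutation within strains gave p = 0.276, and 0.532 on values as deposited. The difference was -0.05 without the 2 Zimbabwe-109 arrays.

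Single HDAC3 values overlapped between stages in 4 of 4 strains. Of all transcripts, the stages did not overlap for 57.6% in Canton-S, 70.0% in Samarkand, 39.9% in Zimbabwe-109 and 36.8% in Oregon-R. In Canton-S, larvae read 11.53, 11.42 and 11.44 and prepupae 11.72, 11.32 and 11.42. In Samarkand, larvae read 11.43, 11.43 and 11.27 and prepupae 11.40, 10.92 and 11.32. Prepupae of these strains held the highest and the lowest HDAC3 array of the series. In Oregon-R, larvae read 11.42, 11.32 and 11.37 and prepupae 11.44, 11.04 and 11.31. In Zimbabwe-109, larvae read 11.45, 11.08 and 11.34 and prepupae 11.16, 11.33 and 11.28. Differences between stages ran from -0.17 ± 0.12 in Samarkand to 0.02 ± 0.12 in Canton-S, with adjusted p-values from 0.268 to 0.877. Between 16.7% (Oregon-R) and 56.7% (Canton-S) of all transcripts were called per strain. The span of 0.19 over the 4 differences did not pass the interaction test (adjusted p = 0.812, with 23.6% of all transcripts called).

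Within a stage, HDAC3 did not differ among strains past the threshold. Larval means ran from 11.46 ± 0.06 in Canton-S through 11.38 ± 0.09 in Samarkand and 11.37 ± 0.05 in Oregon-R to 11.29 ± 0.19 in Zimbabwe-109 (SD, n = 3), a range of 0.17 (adjusted p = 0.618, limma F test). Prepupal means ran from 11.49 ± 0.20 in Canton-S through 11.26 ± 0.21 in Oregon-R and 11.26 ± 0.09 in Zimbabwe-109 to 11.21 ± 0.26 in Samarkand, a range of 0.27 (adjusted p = 0.183). The F tests were passed by 77.1% of all transcripts in larvae and 67.9% in prepupae. None of the 12 pairs within a stage passed, and the lowest adjusted p was 0.0698, for Samarkand and Canton-S prepupae, with an unadjusted p of 0.0386. Of all transcripts, 51.7% were called for that pair, and from 17.7% to 64.9% over the 12 pairs.

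With both stages averaged, strain differences were estimated from 6 arrays a strain. His4r differed in 5 of the 6 pairs, all but Zimbabwe-109 and Oregon-R (0.03 ± 0.05, adjusted p = 0.676), from 0.12 for Samarkand over Canton-S (adjusted p = 0.0499) to 0.35 for Zimbabwe-109 over Canton-S (adjusted p = 9.81e-06, limma). For kis and HDAC3 only Zimbabwe-109 and Canton-S differed, by -0.20 ± 0.09 in both (adjusted p = 0.0457 and 0.0471). Most transcripts were called in that pair (70.3%), and 68.6% for Canton-S and Oregon-R, 62.6% for Samarkand and Canton-S, 43.9% for Zimbabwe-109 and Samarkand, 41.2% for Zimbabwe-109 and Oregon-R and 36.3% for Samarkand and Oregon-R. The kis and HDAC3 calls were lost without the 2 Zimbabwe-109 arrays (-0.19 in both, adjusted p = 0.113 and 0.107), and when 14 and 15 of the 24 arrays were left out singly, with differences of -0.25 to -0.14 and -0.24 to -0.14. The His4r call for Samarkand over Canton-S was likewise lost without 14 of the arrays (0.10 to 0.15). It was also lost without the 2 Zimbabwe-109 arrays (0.12, adjusted p = 0.0628), while the other 4 His4r calls were not. Scaling mattered more. Under median centring the kis difference was -0.58 (adjusted p = 3.86e-06), and the His4r differences of Canton-S from Oregon-R, Samarkand and Zimbabwe-109 turned sign. Samarkand minus Canton-S then passed in the reversed direction (-0.28, adjusted p = 0.000328, limma). Canton-S minus Oregon-R (0.11, adjusted p = 0.0973) and Zimbabwe-109 minus Canton-S (-0.08, adjusted p = 0.234) did not pass. Without scaling the HDAC3 call was lost (-0.04, adjusted p = 0.841), as were all 5 His4r calls. The His4r differences were then -0.07 for Canton-S and -0.06 for Samarkand against Oregon-R, 0.0092 for Samarkand and 0.11 for Zimbabwe-109 against Canton-S, and 0.10 for Zimbabwe-109 against Samarkand, with adjusted p-values of 0.435 to 0.95.

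Whether the 3 transcripts changed unequally was tested with ratios within an array, on values as deposited, since a brightness factor common to an array cancels in such a ratio. The wider spread of the Canton-S arrays does not cancel. Ratios of other pairs of transcripts were not computed, so how often such a ratio passes or separates the stages was not tested. Stage changes of single transcripts were common, with 45.0% of all transcripts called higher and 26.4% lower in prepupae (limma). The log2 ratio of His4r over kis averaged 0.07 in larvae and 0.60 in prepupae, a rise of 0.52 or 1.44-fold (exact two-sided permutation within strains, p = 0.00015, adjusted over 3 ratios 0.00045). Its stage changes were 1.02 in Canton-S, 0.58 in Samarkand, 0.29 in Zimbabwe-109 and 0.20 in Oregon-R. In Canton-S, larvae read -0.47, -0.23 and -0.67 and prepupae 0.31, 0.62 and 0.76, and in Samarkand, larvae read -0.12, 0.19 and -0.10 and prepupae 0.55, 0.56 and 0.60. The stages did not overlap in these 2 strains and overlapped in the other 2. After quantile normalization, which gives the arrays 1 spread, the Canton-S change was 0.82, and without the 2 arrays the Zimbabwe-109 change was 0.17.

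The ratio of His4r over HDAC3 rose by 0.33 or 1.26-fold (adjusted exact permutation p = 0.00186), again with the same sign in 4 of 4 strains, from 0.17 in Oregon-R to 0.51 in Canton-S. Both ratios with His4r passed with each setting tried, including without Canton-S (0.36 and 0.27), without the 2 Zimbabwe-109 arrays (0.49 and 0.30) and after quantile normalization (0.51 and 0.37). HDAC3 over kis rose by 0.19 or 1.14-fold (adjusted exact permutation p = 0.0128). That rise rested on Canton-S, where it was 0.51, while it was 0.03 in Oregon-R, 0.06 in Zimbabwe-109 and 0.17 in Samarkand. After quantile normalization the Canton-S change was 0.32. The ratio did not pass without Canton-S (0.09, adjusted p = 0.224).

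**Figure D3:**
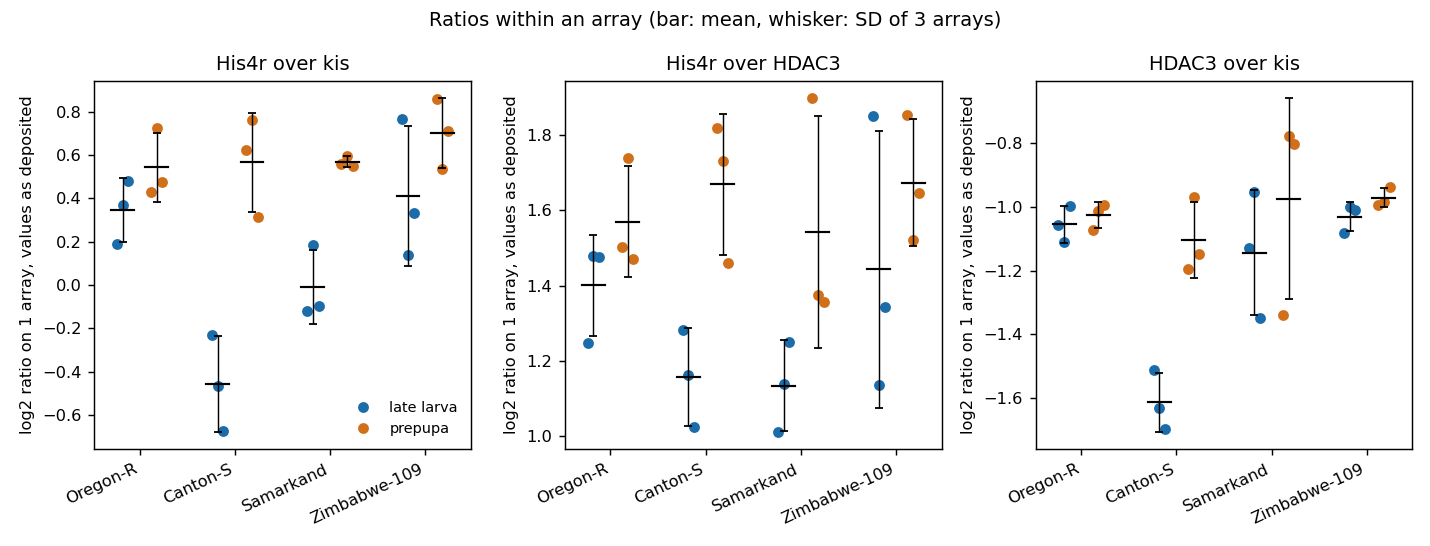
Log2 ratio of 2 transcripts on the same array, from values as deposited (vertical axes, which differ between panels), by strain and stage; points are arrays, bars are means and whiskers are SDs of 3 arrays. His4r over kis is lowest in Canton-S larvae, at -0.47, -0.23 and -0.67, and HDAC3 over kis is low in those larvae too.

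The transcripts also differed in how replicates of a group varied. The residual SD between replicates was 0.09 for His4r, 0.16 for kis and 0.16 for HDAC3 on the log2 scale, beside a median of 0.10 over all transcripts. Deviations of kis and HDAC3 from their group means ran together over the 24 arrays (r = 0.67), which share their scaling, while those of His4r followed neither (r = 0.06 with kis and 0.14 with HDAC3). A single axis held 54.7% of the variation between replicates of all transcripts. It carried 82.4% of the replicate variation of kis, 76.0% of that of HDAC3 and 0.15% of that of His4r, beside a median of 48.5% over all transcripts. Oregon-R prepupal replicate 3 and Zimbabwe-109 larval replicate 3 lay at the low end, where kis read 12.09 and 12.18 and HDAC3 11.04 and 11.08. Canton-S prepupal replicate 1 lay at the high end, with 12.64 and 11.72. The part of this axis in the stage changes of kis and HDAC3 was not tested.

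**Figure D4:**
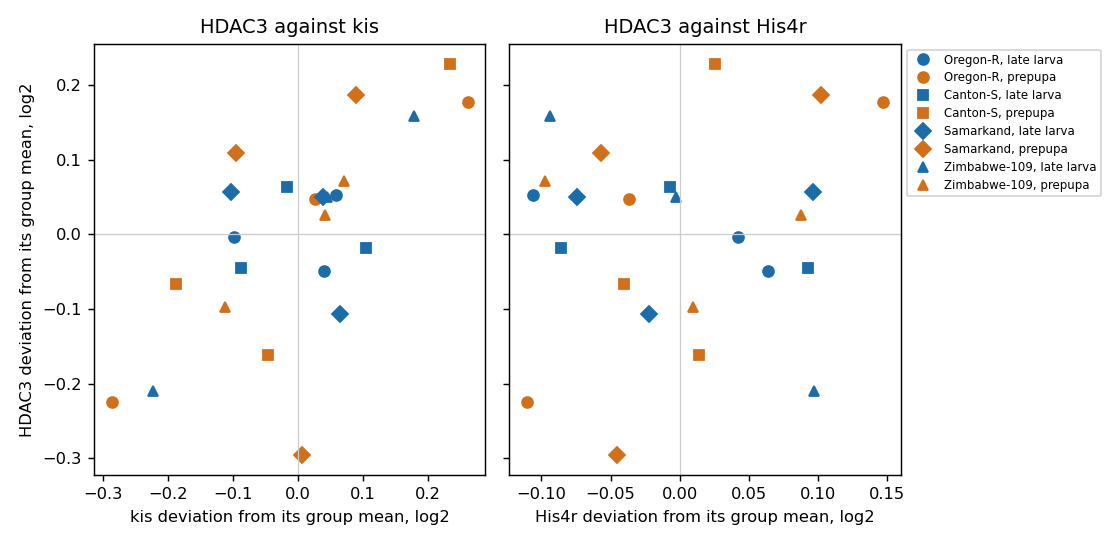
Deviation of HDAC3 from its group mean (vertical axis, log2) against that of kis (left) and of His4r (right, a narrower axis) on 24 arrays; marker shape is the strain and colour the stage. HDAC3 and kis deviate together (r = 0.67), and HDAC3 and His4r do not (r = 0.14).

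To see how ordinary these changes were, each transcript was set beside the 500 transcripts nearest to it in mean level. His4r changed by more in absolute terms than 55.4% of its neighbours, of which 51.2% were called higher and 28.8% lower in prepupae. The absolute size of its rise was thus near the middle of those of similar level, whose median absolute change was 0.26. In signed terms, 74.8% of these neighbours had a lower change than His4r, and their median was 0.11. The strain range of His4r exceeded that of 66.8% of neighbours in larvae and of 23.2% in prepupae. Under median centring the larval range of His4r exceeded that of 9.0% of neighbours, so this placing depends on the scaling.

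Among its own neighbours kis stood lower in signed terms. Their median stage change was 0.12, with 63.8% above 0, and 20.4% had a lower value than kis. In absolute size its change was larger than that of 45.0% of neighbours, whose median was 0.23. Its larval strain range of 0.30 was larger than that of 30.4% of them, of 76.0% under median centring and of 49.6% without scaling. Its prepupal strain range of 0.14 was larger than that of 8.8% of them, beside a neighbour median of 0.38. The prepupal share was 43.4% under median centring and 30.8% without scaling. The residual SD of kis exceeded that of 77.2% of its neighbours.

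HDAC3 had a smaller absolute stage change than most transcripts like it, exceeding 26.6% of its neighbours, of which 69.8% were called in one direction or the other. Its larval strain range exceeded that of 11.6% of neighbours (median 0.41), a place between 11.6% and 13.0% with median centring, no scaling or normexp. Its prepupal strain range exceeded that of 36.8% of neighbours, and of 13.0% without scaling. The strains differed in larvae for 77.2% of these neighbours. The residual SD of HDAC3 was higher than that of 82.0% of them, which widens its intervals.

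**Figure D5:**
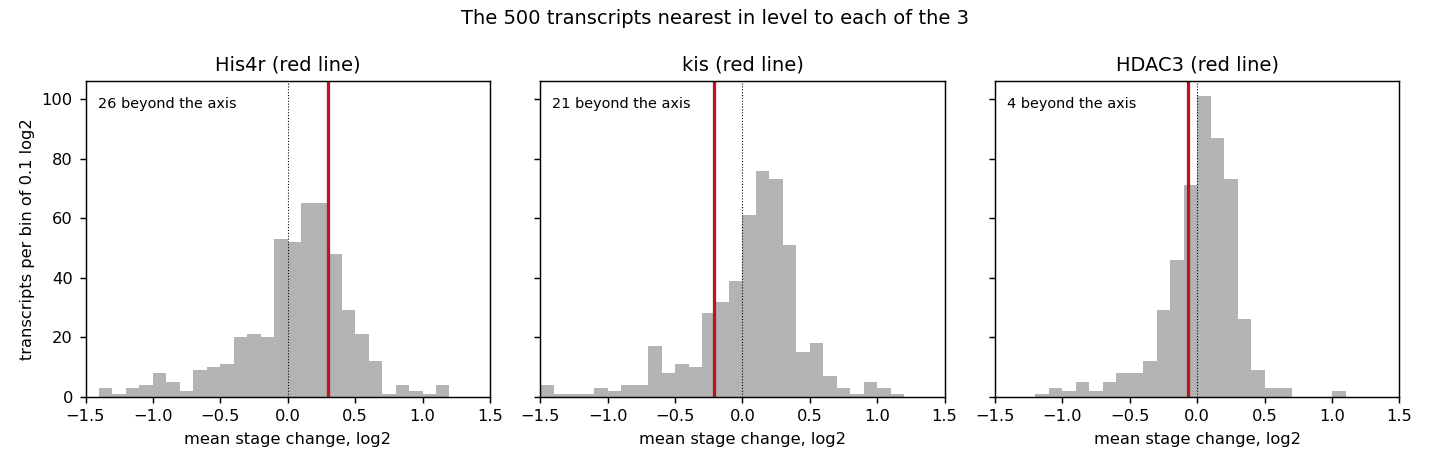
Mean stage change over 4 strains (horizontal axis, log2) of the 500 transcripts nearest in level to His4r, kis and HDAC3 (grey, number per bin of 0.1); red lines mark the 3 transcripts themselves, and 26, 21 and 4 neighbours lie beyond the axis. In signed terms, 74.8% of neighbours lie below the His4r line at 0.30, 20.4% below the kis line at -0.21 and 27.8% below the HDAC3 line at -0.07.

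The transcripts with the most similar profiles over the 24 arrays were found by Pearson correlation. For His4r the closest of all was FBtr0086995 (r = 0.96), which rose by 0.58 ± 0.04 (adjusted p = 1.38e-11), and the closest with a gene name was sle, which encodes a nucleolar protein (r = 0.81). For kis it was FBtr0075832 (r = 0.96), which fell by 0.22 ± 0.07 (adjusted p = 0.0105), and among named transcripts CG16974 (r = 0.86). For HDAC3 it was FBtr0082279 (r = 0.92; stage change -0.11 ± 0.06, adjusted p = 0.123) and again CG16974 (r = 0.75). The arrays share 1 scaling, and within groups CG16974 followed kis (r = 0.92) while sle did not follow His4r (r = 0.02). These values describe likeness over 24 arrays of 8 groups, chosen as the highest of 16636 or of 15.

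Other chromatin genes could hardly be read, since 16 transcripts in all carried a single gene name. Of the 18 listed remodellers only kis was among them, and of the 14 deacetylases and co-repressors only HDAC3. None of the 9 other histone genes, 5 acetyltransferases, 11 Polycomb and trithorax genes, 11 ecdysone-response genes and 24 tissue markers had a named row, so the tissues in the samples were not checked against markers. The 4 heterochromatin genes included SuUR, which holds back replication of heterochromatin in polytene chromosomes. It rose by 0.11 ± 0.04 (adjusted p = 0.0179, limma).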

How the data were processed

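Whole-animal RNA was hybridised to single-colour cy3 NimbleGen arrays by the maker's service, per the labels' protocols. The authors deposited 1 linear intensity for each of 16637 transcripts on each of 24 arrays. RMA is named, without version or role, in the submitters' processing notes. Since deposited intensities were whole numbers with unequal medians, they were taken to log2 and quantile normalized (limma version 3.58.1, R version 4.3.3). A limma model with 1 mean per group covered the 24 arrays, leaving 16 residual degrees of freedom. Tests were two-sided, and limma's p-values were adjusted over all transcripts by the Benjamini-Hochberg method, with a threshold of 0.05. The limma tests of the mean stage change and of the interaction were checked on simulated data. Errors in those data were independent, without the axis of replicate variation that transcripts share here, so the check does not cover it. Exact permutations of stage labels within strains used 160000 arrangements, with p-values adjusted over the 3 transcripts or 3 ratios. No transcript was filtered out. Precision is limited by the number of arrays. Groups came from the sample labels and replicate numbers from sample titles. Names came from a gene table of Release 6, which held 44 identifiers, 16 of them with 1 gene. The named genes were the 3 transcripts, the most similar row and named row for each, and listed chromatin genes with a named row. The 3 transcripts, the lists and 2 of the alternatives (without Canton-S and without 2 Zimbabwe-109 arrays) were chosen with earlier results of these data known. The position of arrays between the stages, the axis of replicate variation and the fit of each strain alone were added after the data were seen. Other alternatives were median centring, no scaling, normexp background correction (offset 50), filters that removed the 30% or 50% of transcripts with the lowest mean, a replicate block and leaving out each array. Normalization was repeated whenever arrays were left out. No coordinates are given because no genome build was named for the files.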

Additional observations from a re-analysis of the deposited data

Results flagged for a closer look

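The stage change of His4r differed among strains by a test of the difference itself. Its 4 values spanned 0.45 on the log2 scale, from 0.07 in Oregon-R to 0.53 in Canton-S (interaction adjusted p = 0.0229, limma, which 23.6% of all transcripts passed). The Canton-S change exceeded the Oregon-R change by 0.45 ± 0.11 (adjusted p = 0.00356). Prepupae lay above all larvae in 3 of 3 Canton-S arrays and overlapped with them in Oregon-R. The stages were separate for 57.6% and 36.8% of all transcripts in those strains. The interaction did not pass without Canton-S (adjusted p = 0.302), without scaling (0.272), with a fixed replicate block (0.0569) or without any 1 of 5 arrays, and the pair did not pass without scaling (0.60, adjusted p = 0.117). No test for outlying values of the 3 transcripts was run within groups of 3 arrays.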

How the results depend on the processing

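The mean stage change kept its direction and its side of the threshold for His4r (0.21 to 0.34), kis (-0.27 to -0.17) and HDAC3 (-0.11 to -0.05) under each alternative run, and when any single array was left out. The dimmest 50% of transcripts included HDAC3, so it has no value there. Other results moved, and the cause was not tested. Median centring took the His4r change in Zimbabwe-109 to 0.20 (adjusted p = 0.104), and brought the prepupal range of His4r (0.43) and the larval (0.78) and prepupal (0.43) ranges of kis past the threshold. It reversed His4r differences of Samarkand minus Canton-S larvae (-0.14) and Zimbabwe-109 minus Canton-S prepupae (-0.25), and over both stages Canton-S minus Oregon-R (0.11), Samarkand minus Canton-S (-0.28) and Zimbabwe-109 minus Canton-S (-0.0801). Of these, the prepupal difference (adjusted p = 0.0164) and Samarkand minus Canton-S over both stages (adjusted p = 0.000328, limma) passed in the reversed direction. Strain pairs that passed, of 12, went from 1 to 6 for kis, from 0 to 1 for HDAC3 and from 6 to 4 for His4r. Without scaling they were 1 for His4r and 0 for kis, and without the 2 Zimbabwe-109 arrays 5 and 0. Without scaling, the His4r changes in Samarkand (0.17) and Zimbabwe-109 (0.0925), its interaction (0.60) and larval range (0.40), and the kis changes in Canton-S (-0.35) and Samarkand (-0.41) no longer passed. Zimbabwe-109 minus Oregon-R larvae (0.0314) and minus Canton-S prepupae (-0.19) reversed for His4r. With normexp, kis in Canton-S (-0.35) and HDAC3 over kis (0.14) did not pass. Nor did Zimbabwe-109 minus Canton-S over both stages for kis (-0.23, adjusted p = 0.0523) and HDAC3 (-0.29, adjusted p = 0.0555, limma). Samarkand minus Canton-S over both stages for His4r missed the threshold with normexp (0.14, adjusted p = 0.0506) and without the dimmest 50% (0.12, adjusted p = 0.0514). Without Canton-S, the His4r interaction (0.24) and HDAC3 over kis (0.0861) did not pass. Without the 2 Zimbabwe-109 arrays, His4r in that strain (0.27) and kis in Canton-S (-0.30) did not pass, and HDAC3 in Zimbabwe-109 reversed (0.0393). With each strain normalized and fitted alone, chosen after seeing the data, kis in Canton-S (-0.38) and His4r in Zimbabwe-109 (0.25) did not pass.

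When single arrays were left out, calls or signs changed for His4r in Zimbabwe-109 (0.22 to 0.32), its interaction (0.40 to 0.53) and its prepupal range (0.18 to 0.27). They also changed for kis in Oregon-R (-0.27 to 0.0041), Canton-S (-0.41 to -0.20) and Samarkand (-0.37 to -0.27), and for HDAC3 in Oregon-R (-0.20 to 0.0033), Canton-S (-0.0895 to 0.10) and Zimbabwe-109 (-0.14 to 0.0448).

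Whether equal replicate numbers pair samples across stages could not be told from the mixed correlations of their deviations. Of 9 same-numbered pairs 5 had a correlation of deviations over 0.1, with a range of -0.63 to 0.42. The fixed replicate block grouped arrays by replicate number across all strains and both stages, so it did not test pairing within a strain. With this fixed block the His4r interaction was 0.45 (adjusted p = 0.0569) and HDAC3 in Zimbabwe-109 was 0.0525, a change of sign. Over both stages, Samarkand minus Canton-S for His4r (0.13, adjusted p = 0.0781) and Zimbabwe-109 minus Canton-S for HDAC3 (-0.17, adjusted p = 0.0737) no longer passed, and 1 of 12 HDAC3 pairs within a stage did. A random block, by strain and replicate number together, had a correlation of -0.06. The blocks left the numbers of transcripts called within 1.5 times the unblocked ones.

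Transcripts called higher and lower (7492 and 4395) were 3143 and 2911 without scaling and 4142 and 2352 without the dimmest 50%. Interaction calls (3922) were 1064, 2399 and, without Canton-S, 1587. Prepupal strain calls (11298) were 4249, 5869 and 6338, and larval ones (12824) were 6520 without the dimmest 50%.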
